A study of Mus musculus with 9 samples.

Results

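Metallothionein, zinc and iron handling genes were followed in cultured synovial fibroblasts (SFs) of mouse ankle joints. The 9 genes, of 49548 in the deposited tables, were taken by name: the metallothioneins Mt1 and Mt2, the zinc transporters Slc30a1, Slc39a14 and Slc39a8, the ferritin chains Fth1 and Ftl1, the transferrin receptor Tfrc and the iron exporter Slc40a1. All 9 were above 0 in at least 1 library of each comparison and entered the limma fit of each. SFs came from 8-week-old mice on a CBA C57BL/6J background, which were WT or hTNFtg, that is, carriers of a human TNF transgene that develop TNF-driven polyarthritis. There were 3 WT libraries, 3 hTNFtg libraries and 3 libraries of hTNFtg SFs given infliximab, an antibody that neutralizes human TNF, at 1 μg/mL for 48 hours. The labels record no treatment for the WT and hTNFtg SFs, whereas the methods describe vehicle. CD45+ cells had been depleted from all cultures at passage 1, so each library is RNA of a cultured, CD45-depleted population and not of joint tissue. The methods speak of 3 biological replicates and the labels do not tie them to animals, so p-values measure the spread between these libraries.

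Metallothioneins are small cysteine-rich proteins that bind zinc and copper in the cytosol, and their genes are turned on by the zinc-sensing factor Mtf1 through metal response elements in their promoters. Zinc enters the cytosol through Slc39 (ZIP) transporters and leaves it through Slc30 (ZnT) transporters. Iron enters bound to transferrin through Tfrc, is stored in shells of ferritin heavy and light chains and leaves through Slc40a1 (ferroportin). Cells adjust these iron proteins largely after transcription, since iron regulatory proteins bind mRNA hairpins called iron-responsive elements. When iron is scarce, these proteins block translation of ferritin and ferroportin mRNA and protect Tfrc mRNA from decay. In inflammation, metallothioneins and Slc39a14 are known as acute-phase genes of the liver.

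The promoters of Mt1 and Mt2 are shown beside that of Slc30a1, another known target of Mtf1, because the first 2 genes were called in hTNFtg SFs and the last was not. The promoter table used, from RefSeq (GRCm38.p6), gave 250 bases before and 50 bases after the start for 10 promoters of 7 of the 9 genes. It had no entry for Slc39a14 and Slc40a1. The core was searched as TGCACNC or TGCGCNC, with N any base, on both strands, and its matches stand in capitals in these 5′ to 3′ sequences.
Mt1 promoter (chr8:94178839-94179138, + strand): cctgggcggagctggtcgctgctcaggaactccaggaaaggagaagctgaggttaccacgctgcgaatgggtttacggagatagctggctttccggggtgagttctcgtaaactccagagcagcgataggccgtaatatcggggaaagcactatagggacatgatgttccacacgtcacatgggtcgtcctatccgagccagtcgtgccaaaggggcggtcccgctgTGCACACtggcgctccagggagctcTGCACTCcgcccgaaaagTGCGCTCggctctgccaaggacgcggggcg
Mt2 promoter (chr8:94172368-94172667, + strand): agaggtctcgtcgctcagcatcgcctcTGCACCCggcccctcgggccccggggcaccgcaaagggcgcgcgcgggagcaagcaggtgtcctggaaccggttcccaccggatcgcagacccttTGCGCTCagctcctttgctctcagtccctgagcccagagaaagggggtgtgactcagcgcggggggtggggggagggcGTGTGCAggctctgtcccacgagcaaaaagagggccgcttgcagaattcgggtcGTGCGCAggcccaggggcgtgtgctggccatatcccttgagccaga
Slc30a1 promoter (chr1:191906531-191906830, + strand): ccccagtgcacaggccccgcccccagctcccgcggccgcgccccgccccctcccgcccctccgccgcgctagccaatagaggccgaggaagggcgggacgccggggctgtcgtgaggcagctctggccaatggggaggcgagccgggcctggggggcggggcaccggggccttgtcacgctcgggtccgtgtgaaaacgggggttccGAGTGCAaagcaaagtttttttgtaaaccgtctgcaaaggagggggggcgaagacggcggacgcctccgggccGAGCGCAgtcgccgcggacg
Mt1 held 3 cores and Mt2 held 4, against 2 in Slc30a1. Of 32851 promoters of this length, 25.7% held at least 1 core, 7.11% at least 2, 1.97% at least 3 and 0.517% at least 4. The upstream promoter of Tfrc also held 2 cores, which overlap on opposite strands, and Slc39a8 had 1 in the second of its promoters. The Fth1 and Ftl1 promoters held 0. These matches describe letters only and show no binding.

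The iron genes are shown by their iron-responsive elements instead, with the loop CAGTGN in capitals. The pattern was a C, 5 bases, the loop, and 5 bases that pair with the first 5, G-T pairs allowed, on the sense strand of GENCODE M21 transcripts (GRCm38). It was present in 271 of 21877 coding genes, or 1.24%.
Fth1 site 1 (chr19:9982733-9982759, + strand): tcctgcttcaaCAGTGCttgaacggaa
Ftl1 site 1 (chr7:45459780-45459806, - strand): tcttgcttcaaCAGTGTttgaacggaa
Slc40a1 site 1 (chr1:45925466-45925492, - strand): aacttcagctaCAGTGTtagctaagtt
Tfrc site 1 (chr16:32631220-32631246, + strand): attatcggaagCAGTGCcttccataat
Tfrc site 2 (chr16:32631599-32631625, + strand): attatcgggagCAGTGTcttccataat
Tfrc site 3 (chr16:32631664-32631690, + strand): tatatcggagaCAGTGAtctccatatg
Tfrc site 4 (chr16:32631711-32631737, + strand): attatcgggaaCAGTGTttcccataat
Fth1, Ftl1 and Slc40a1 had 1 match of this pattern each, in the 5′ UTR, where binding is known to block translation. Tfrc had 4 matches, all in the 3′ UTR, and was the only coding gene with 3 or more. Mt1, Mt2 and the 3 zinc transporters had 0 matches. The pattern asks for 5 paired bases, so elements that depart from it are not counted. The libraries count mRNA and not protein, so of these steps they bear on the amount of Tfrc mRNA and not on ferritin or ferroportin translation.

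The libraries were made by 3′ mRNA sequencing, which counts transcripts by reads at their 3′ ends, so that counts do not scale with transcript length and levels of different genes can be set side by side. Values are the deposited normalized counts, which were rounded after division by 1 factor per library. Approximate reads on genes ranged from 3828629 to 9014344 in 8 libraries, whereas hTNFtg replicate 1 held 613217, and 1 read there was worth 6.23 normalized counts against 0.534 to 1.10 elsewhere. The floor of detection, set at 3 reads, therefore stood at 18.7 normalized counts in hTNFtg replicate 1 and at 1.60 to 3.31 in the others. All 11 fibroblast markers, such as Col1a1 and Pdgfra, were detected, summing to between 31838 and 44892 in every library. The 15 macrophage markers, which include Lyz2, Cd68 and C1qa, summed to 197 to 811 in WT, 3379 to 7641 in hTNFtg and 2252 to 4689 with infliximab, with Vsig4 listed at 0 throughout and Ptprc (CD45) at 0 to 3, 9 to 31 and 8 to 28. Not all of them rose. Spic had 0, 2 and 5 in WT and 0, 1 and 0 in hTNFtg, and Cd5l had 0, 33 and 1 in WT and 0, 0 and 1 in hTNFtg. The 12 hepatocyte markers summed to 1160 in infliximab replicate 3 and to 43 to 179 in the other libraries. The part of these cells in the results was not tested. Fewer cells of a type and less RNA per cell cannot be told apart in such bulk libraries.

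hTNFtg SFs had more metallothionein mRNA than WT SFs. Tfrc values were also higher and only just passed the test, and Tfrc was not called in edgeR or with array weights. The zinc and iron importer Slc39a14 also passed the test, with values that overlapped those of WT, while the zinc exporter Slc30a1 did not pass and ferritin values were higher without passing. The calls of Slc39a14 and Tfrc were kept in 3 and 4 of 6 fits without a library. Genes were called by the rule of the study in a limma fit over all genes, which asks for a log2 difference of 1 or more in either direction at an unadjusted P under 0.05. By this rule 4 of the 9 genes rose in hTNFtg versus WT SFs (Mt1, Mt2, Slc39a14 and Tfrc) and 0 fell, where 6.39% of 28522 genes were called, 3.35% higher and 3.04% lower. After Benjamini-Hochberg adjustment over all genes, Mt1 alone of the 9 stayed under 0.05 in the main limma fit, as did 0.48% of all genes. In edgeR and with array weights 3 of the 9 did (Mt1, Mt2 and Slc39a14), as did 923 and 1004 of 28522 genes. The count was 2 (Mt1 and Mt2) with robust eBayes and in 1 fit over all 9 libraries, where 461 and 381 genes passed. With the replicate block it was 0, as over all genes. In 5 of the 9 genes (Mt1, Mt2, Fth1, Ftl1 and Tfrc) every hTNFtg library lay above every WT library, which holds for 5.63% of all genes. The median log2 fold change was 1.04 for the 9 genes and 0.00 for all genes tested. The 9 genes were chosen with earlier results of these data known. Their counts and medians beside those of all genes, here and below, are therefore a description and not a test. Without hTNFtg replicate 1 the rule called 2 of the 9, Mt1 and Mt2, where 2355 of 28244 genes were called. Without WT replicate 3 it also called Mt1 and Mt2, where 1382 of 27534 genes were called.

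**Figure D1:**
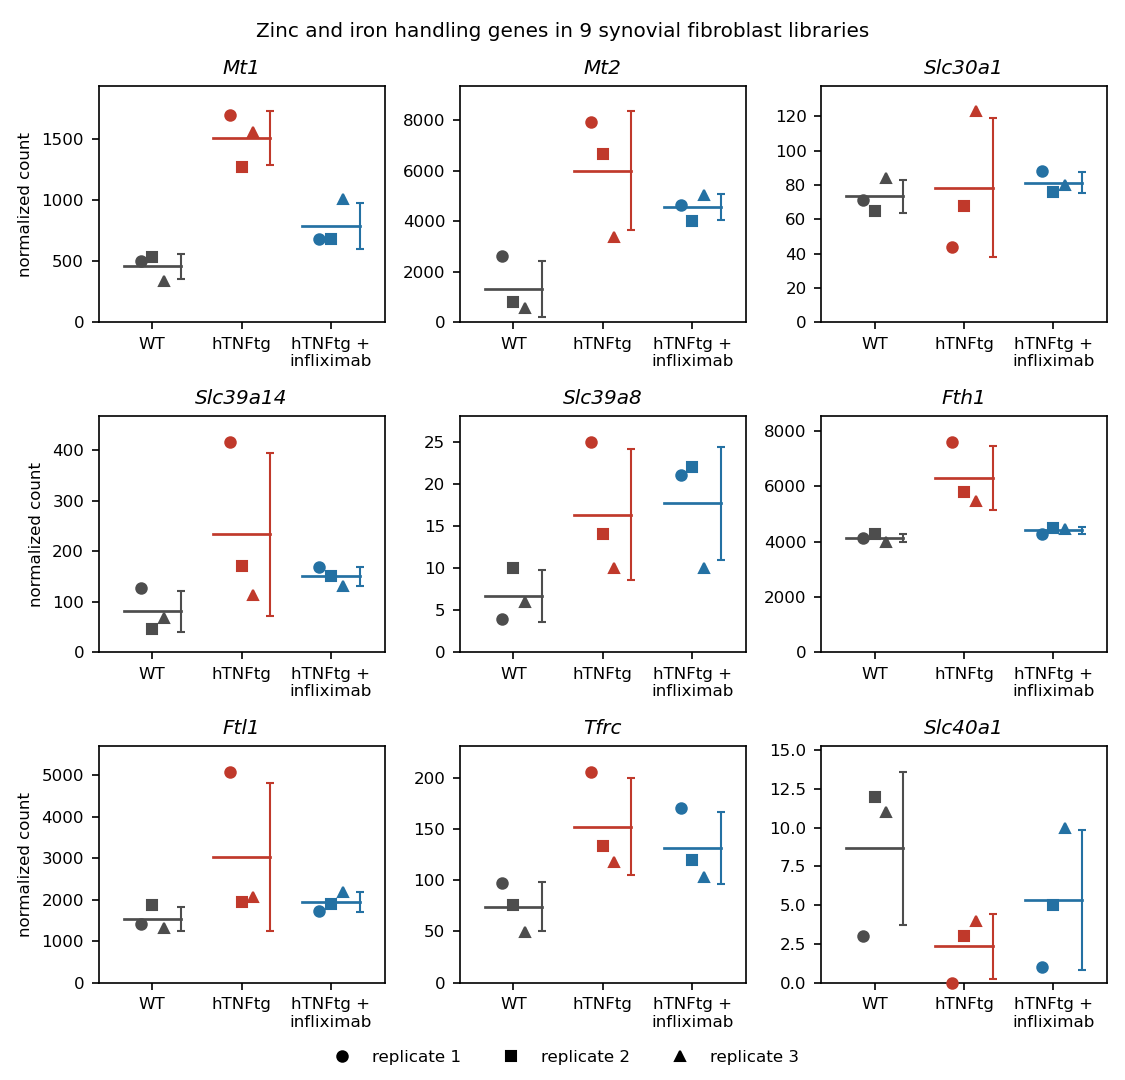
Normalized count (vertical axis, linear, from 0) of each of the 9 genes in every library of WT, hTNFtg and infliximab-treated hTNFtg SFs. Symbols are replicates, horizontal lines are means and bars are 1 SD (n = 3); the 3 hTNFtg libraries lie above the WT libraries for Mt1, Mt2, Fth1, Ftl1 and Tfrc, and the infliximab libraries lie between the groups for Mt1.

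With infliximab, Mt1 and Fth1 values were lower than in untreated hTNFtg SFs without passing the test. The log2 differences of the infliximab libraries were smaller in size from hTNFtg than from WT SFs for 4 of the 9 (Mt2, Slc39a14, Slc39a8 and Tfrc) and smaller from WT for the other 5, and whether they differed was not tested. By the same rule 0 of the 9 genes were called in infliximab-treated versus untreated hTNFtg SFs, where 2.43% of 28540 genes were called, 1.49% higher and 0.936% lower. Of the 9, only Mt1 had an unadjusted P under 0.05, in limma as in edgeR, and edgeR also called 0. No gene passed an adjusted p of 0.05 in the main limma fit. An unadjusted P under 0.05 was found there for 3.59% of all genes and 6.64% of genes with a mean of at least 100. In limma 65 genes passed with array weights, 3 with robust eBayes and 3 in 1 fit over all 9 libraries, against 165 in edgeR. All infliximab libraries lay below all hTNFtg libraries for 2 of the 9, Mt1 and Fth1, against 3.44% of all genes. The median log2 difference of the 9 was -0.31.

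In infliximab-treated hTNFtg versus WT SFs 2 of the 9 genes were called, Mt2 and Slc39a8, both higher, where 6.81% of 28243 genes were called, 3.86% higher and 2.95% lower. None of the 9 passed adjustment in the main limma fit, which 0.74% of genes did. In that fit 5 of the 9 had an unadjusted P under 0.05 (Mt1, Mt2, Slc39a14, Slc39a8 and Tfrc), against 11.9% of all genes. The share was 21.3% of the 6037 genes with a mean of at least 100, a level that Slc39a8 did not reach. With robust eBayes 2 of the 9 passed adjustment, as did 1182 of 28243 genes. The count was 1 with array weights (378 of 28243 genes) and 1 with a minimum mean of 10 (488 of 13470 genes). In edgeR 4 of the 9 had an adjusted p under 0.05, as did 1319 of 28243 genes. All infliximab libraries lay above all WT libraries for 4 of the 9 (Mt1, Mt2, Slc39a14 and Tfrc), against 7.14% of all genes. The comparisons share libraries, hTNFtg in the first 2, WT in the first and last and infliximab in the last 2, so their values are set side by side here and are not independent.

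**Figure D2:**
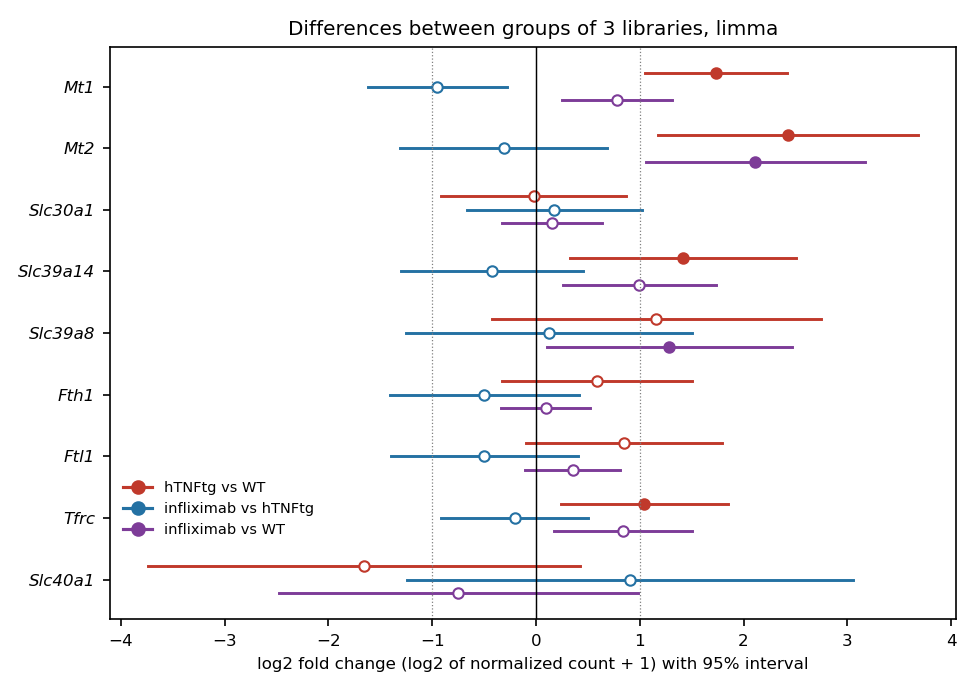
Log2 fold change of the 9 genes in the 3 comparisons (horizontal axis), with 95% intervals from limma over 6 libraries each. Filled points passed the calling rule, whose size threshold of 1 is marked by dotted lines; Mt1 and Mt2 lie farthest to the right in hTNFtg versus WT, and the blue point of Mt1 lies just inside the left dotted line.

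Mt1 (ENSMUSG00000031765, chr8:94179082-94180327 of mm10, + strand) had normalized counts of 499, 533 and 340 in WT, 1694, 1265 and 1553 in hTNFtg, and 680, 676 and 1003 after infliximab. The 3 groups did not overlap, with hTNFtg highest and the infliximab libraries in between. Means were 457 ± 103 (SD, n = 3), 1504 ± 219 and 786 ± 188. The hTNFtg mean was 3.29 times that of WT, with a log2 fold change of 1.73 ± 0.31 (SE) and an adjusted p of 0.037 in limma. Across 16 alternatives the log2 fold change was 1.5 to 1.86 and the call held in all of them, with adjusted p-values from 0.003 to 0.478. With infliximab the mean was 0.523 times that of hTNFtg, a log2 difference of -0.95 ± 0.31 with an adjusted p of 0.803 in limma. The unadjusted P was under 0.05 and the size just short of 1, and the rule called Mt1 lower without hTNFtg replicate 2 (-1.07) and without infliximab replicate 3 (-1.14), the library with the hepatocyte markers. Mt1 with infliximab remained 1.72 times the WT mean, at a log2 difference of 0.78 ± 0.24 (adjusted p = 0.20 in limma).

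Mt2 (ENSMUSG00000031762, chr8:94172664-94173568, + strand), the neighbouring metallothionein gene, had 2602, 809 and 545 normalized counts in WT, 7929, 6667 and 3368 in hTNFtg, and 4628, 4006 and 5048 with infliximab. Every hTNFtg and infliximab library lay above every WT library, while the hTNFtg and infliximab ranges overlapped. WT replicate 1 stood apart from the other WT libraries, and the SD of Mt2 on the log2 scale over WT libraries was 1.17, larger than in 96.9% of 160 genes of like level. The log2 fold change in hTNFtg versus WT SFs was 2.42 ± 0.57 (adjusted p = 0.118 in limma), from a mean ratio of 4.54. Leaving out 1 library at a time gave 1.95 to 3.08, called each time, with the highest value without WT replicate 1. The adjusted p was under 0.05 in edgeR (0.00013) and in limma with array weights, with robust eBayes or in 1 fit over all 9 libraries. It rose to 0.72 in limma without WT replicate 2. With infliximab the log2 difference from hTNFtg was -0.31 ± 0.46 (95% interval -1.31 to 0.69), and ran from -0.68 to -0.06 in fits without a library. That from WT was 2.12 ± 0.47 (adjusted p = 0.090 in limma), called with each library left out in turn. Among 6037 genes with a mean of at least 100, the log2 fold change of Mt2 ranked 39th from the top in hTNFtg versus WT and 38th in infliximab-treated versus WT SFs, where Mt1 ranked 80th and 316th. Mt1 ranked 54th from the bottom in infliximab-treated versus untreated hTNFtg SFs and Mt2 1061st.

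The sum of Mt1 and Mt2 made up 0.071, 0.030 and 0.020 percent of all normalized counts in WT, 0.252, 0.193 and 0.102 percent in hTNFtg, and 0.126, 0.114 and 0.145 percent with infliximab. The ratio of Mt2 to Mt1 normalized counts was 5.21, 1.52 and 1.60 in WT, 4.68, 5.27 and 2.17 in hTNFtg, and 6.81, 5.93 and 5.03 with infliximab. It was thus above 4.5 in 6 of the 9 libraries, all 3 infliximab libraries among them, and below 2.5 in WT replicates 2 and 3 and hTNFtg replicate 3. Whether infliximab acted differently on Mt1 and Mt2 was not tested. The longest stretch of identical bases between the transcripts of Mt1 and Mt2 was 20 bases, with 74.2% identity over 306 aligned bases.

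Slc30a1 (ENSMUSG00000037434, chr1:191906767-191913247, + strand), the plasma membrane zinc exporter whose gene is a known target of Mtf1, had 71, 65 and 84 normalized counts in WT, 44, 68 and 123 in hTNFtg, and 88, 76 and 80 after infliximab. The groups overlapped throughout, and the lowest and highest values both fell in hTNFtg, where replicate 1 rested on 7 reads. The log2 fold change was -0.02 ± 0.41 in hTNFtg versus WT (95% interval -0.92 to 0.87), with a sign that turned in edgeR (0.14) and without any of 3 libraries. It was 0.18 ± 0.39 in infliximab-treated versus untreated hTNFtg and 0.15 ± 0.21 in infliximab-treated versus WT SFs. The first interval includes no change as well as a fall or rise of nearly 1 on the log2 scale.

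Slc39a14 (ZIP14, ENSMUSG00000022094, chr14:70303469-70351425, - strand), an importer of zinc and of iron not bound to transferrin, had 127, 47 and 69 normalized counts in WT, 417, 170 and 114 in hTNFtg, and 169, 151 and 131 after infliximab. The lowest hTNFtg library lay below the highest WT library, whereas all infliximab libraries lay above all WT libraries. The log2 fold change in hTNFtg versus WT SFs was 1.42 ± 0.50 (adjusted p = 0.40 in limma), past the rule. It was lost without hTNFtg replicate 1 (0.89), WT replicate 2 (1.09) or WT replicate 3 (1.36), and edgeR gave an adjusted p of 0.018. In infliximab-treated versus WT SFs the log2 difference was 1.00 ± 0.33 (adjusted p = 0.25 in limma), which before rounding fell short of 1 and was called in 5 of 16 alternatives. Against untreated hTNFtg the value was -0.42 ± 0.41, and 0.10 without hTNFtg replicate 1.

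Slc39a8 (ZIP8, ENSMUSG00000053897, chr3:135825279-135888572, + strand), the closest relative of Slc39a14, was rare, at 4, 10 and 6 normalized counts in WT, 25, 14 and 10 in hTNFtg, and 21, 22 and 10 with infliximab. No library held more than 24 reads of it, and hTNFtg replicate 1 held 4. The log2 fold change was 1.16 ± 0.72 (adjusted p = 0.726 in limma) in hTNFtg versus WT and 1.28 ± 0.53 (adjusted p = 0.37 in limma) in infliximab-treated versus WT SFs. The latter passed the rule and was lost in 6 of 16 alternatives, among them a pseudocount of 5 (0.94).

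Fth1 (ENSMUSG00000024661, chr19:9982703-9985092, + strand), the ferritin heavy chain that oxidizes iron for storage, was among the most abundant of the 9, at 4120, 4284 and 3978 normalized counts in WT, 7617, 5776 and 5474 in hTNFtg, and 4273, 4486 and 4455 with infliximab. All hTNFtg libraries exceeded all others, and the WT and infliximab values overlapped. The mean was 4127 ± 153 (SD, n = 3) in WT, 6289 ± 1160 in hTNFtg and 4405 ± 115 with infliximab. The hTNFtg mean was 1.52 times the WT mean, and the log2 fold change of 0.59 ± 0.42 did not pass (adjusted p = 0.726 in limma). Infliximab-treated versus untreated SFs differed by -0.50 ± 0.42 (adjusted p = 0.803 in limma) and infliximab-treated versus WT SFs by 0.09 ± 0.19. On the log2 scale the SD of Fth1 was 0.05 in WT and 0.04 with infliximab, smaller than in all but 0.870% and 1.74% of 115 genes of like level, and 0.26 in hTNFtg. Best1, a channel gene on the opposite strand that ends 81 bases downstream of Fth1 (chr19:9985174-10001633), was listed with the same value as Fth1 in all 9 libraries, so the reads of these genes cannot be told apart in the tables. Among genes with a mean of at least 100, 44 pairs were equal in all 9 libraries, and all 44 overlapped or lay within 500 bases of each other.

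Ftl1 (ENSMUSG00000050708, chr7:45457944-45459884, - strand), the ferritin light chain that helps form the iron core, had 1404, 1875 and 1317 normalized counts in WT, 5082, 1935 and 2063 in hTNFtg, and 1731, 1906 and 2193 with infliximab. Every hTNFtg library exceeded every WT library, by little in replicates 2 and 3, and the shallow hTNFtg replicate 1 was highest. The log2 fold change in hTNFtg versus WT SFs was 0.85 ± 0.43 (adjusted p = 0.721 in limma), and 0.40 without hTNFtg replicate 1. Without hTNFtg replicate 3 it was 1.05 and was called higher, the only call of Ftl1 among the 6 fits without a library. With all libraries it was -0.50 ± 0.42 in infliximab-treated versus untreated hTNFtg SFs and 0.35 ± 0.20 in infliximab-treated versus WT SFs, and Ftl1 was called in none of the 3 comparisons. The difference from untreated hTNFtg SFs ran from -0.74 to -0.05 in fits without a library.

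Ftl1 counts are uncertain because near copies could share its reads, and which locus the reads came from was not tested. The Ftl1 transcript matched that of Ftl2-ps at 98.7% of 552 aligned bases, with an identical stretch of 306 bases, and those of Ftl1-ps1 and Ftl1-ps2 at 99.5% of 208 and 97.8% of 549 bases. Ftl2-ps had 597, 1585 and 1677 normalized counts in WT, 972, 1476 and 4150 in hTNFtg, and 1536, 1447 and 1712 with infliximab. Ftl1 made up 31.3% of the sum of these genes in hTNFtg replicate 3 and 81.8% in hTNFtg replicate 1. The sums were 2066, 3592 and 3151 in WT, 6216, 3571 and 6586 in hTNFtg, and 3498, 3491 and 4060 with infliximab, so that hTNFtg replicate 3 joined replicate 1 above all other libraries while replicate 2 stood within the WT range. In an alternative chosen after seeing the data, the summed counts gave a log2 fold change of 0.88 ± 0.44 in hTNFtg versus WT SFs (adjusted p = 0.704 in limma), close to that of Ftl1 alone. Gm22133, annotated as a miRNA inside Ftl1, was listed at 0.504 to 0.547 of the Ftl1 value in all libraries.

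**Figure D3:**
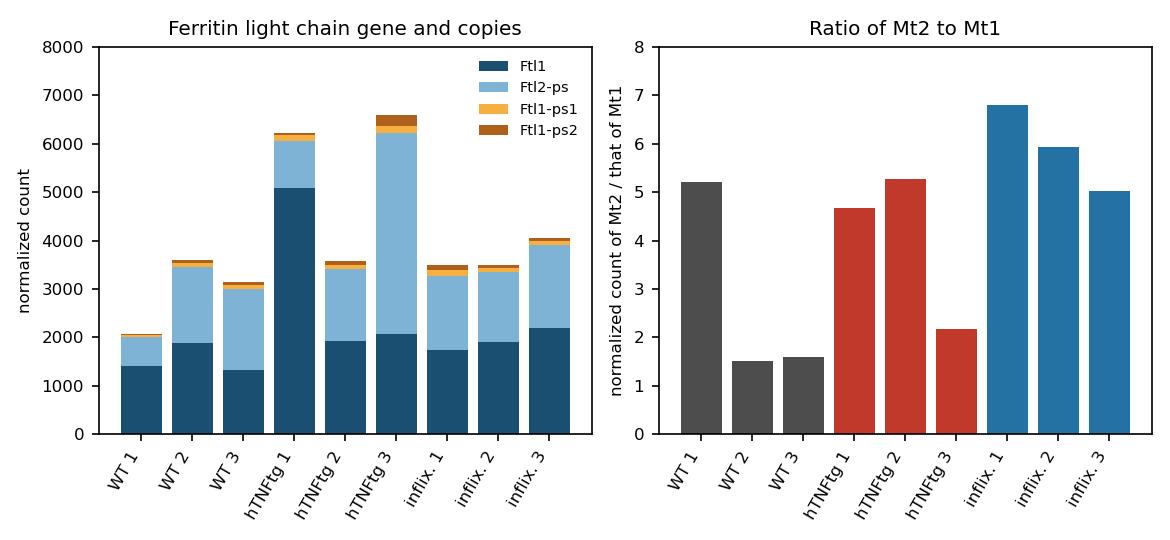
Left, normalized counts of Ftl1 and its 3 near copies stacked for each library (the total is highest, at 6586 and 6216, in hTNFtg replicates 3 and 1, with Ftl2-ps the larger part in replicate 3 and Ftl1 in replicate 1). Right, the ratio of Mt2 to Mt1 normalized counts in each library, coloured by group, which runs from 1.52 in WT replicate 2 to 6.81 in infliximab replicate 1.

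Macrophages express ferritin and Slc11a1 strongly, and their summed markers were higher in every hTNFtg and infliximab library than in any WT library. This holds for the sum and not for every marker, Spic and Cd5l being exceptions. The 15 markers summed to 7641, 3379 and 5342 in hTNFtg replicates 1, 2 and 3, where Fth1 had 7617, 5776 and 5474, Ftl1 5082, 1935 and 2063, Mt1 1694, 1265 and 1553, and Mt2 7929, 6667 and 3368. The markers themselves shared no order over these libraries. Lyz2, the largest part of the sum, had 5356, 2284 and 2356, whereas C1qa had 212, 330 and 1458 and Cd68 149, 186 and 517. With infliximab the markers summed to 3899, 2252 and 4689, several times the WT sums. In these libraries Mt1 had 680, 676 and 1003, Mt2 4628, 4006 and 5048, Fth1 4273, 4486 and 4455, and Ftl1 1731, 1906 and 2193. In WT the markers summed to 197, 811 and 355. The part of macrophage RNA in the ferritin and metallothionein values was not tested.

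Tfrc (ENSMUSG00000022797, chr16:32608920-32632794, + strand), the receptor that carries transferrin-bound iron into cells, had 97, 76 and 49 normalized counts in WT, 206, 133 and 118 in hTNFtg, and 171, 120 and 103 with infliximab. All WT libraries lay below all others, while hTNFtg and infliximab values overlapped. The hTNFtg mean was 2.06 times the WT mean and the log2 fold change was 1.04 ± 0.37 (adjusted p = 0.40 in limma), just past the rule. It was not called without hTNFtg replicate 1 (0.81), without WT replicate 3 (0.78), with array quality weights (0.92) or in edgeR (0.94). The difference of infliximab-treated from untreated hTNFtg SFs was -0.20 ± 0.33 (95% interval -0.91 to 0.51), and that from WT SFs 0.84 ± 0.30 (adjusted p = 0.283 in limma), called only without WT replicate 1 (1.06) among the 6 fits without a library. The ratio of Fth1 plus Ftl1 to Tfrc normalized counts was 56.9, 81.0 and 108 in WT, 61.6, 58.0 and 63.9 in hTNFtg, and 35.1, 53.3 and 64.5 with infliximab, so the hTNFtg values fell within a narrow range inside that of WT.

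Slc40a1 (ferroportin, ENSMUSG00000025993, chr1:45908068-45926523, - strand), the iron exporter, was close to the limit of detection, at 3, 12 and 11 normalized counts in WT, 0, 3 and 4 in hTNFtg, and 1, 5 and 10 after infliximab. The 0 of hTNFtg replicate 1 allows up to 18.7 normalized counts at its depth, more than any value of this gene. The log2 fold change was -1.65 ± 0.95 in hTNFtg versus WT SFs (adjusted p = 0.726 in limma). It was 0.91 ± 1.00 in infliximab-treated versus untreated hTNFtg SFs and -0.75 ± 0.77 in infliximab-treated versus WT SFs. In fits without a library these differences ran from -2.20 to -0.93, from 0.19 to 1.58 and from -1.30 to -0.07. None of these was called, and the counts limit what could be seen. With the replicate block Slc40a1 was called lower in hTNFtg versus WT SFs at the same size, as were 804 of 28522 genes.

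The order of mean normalized counts in WT SFs was Fth1, Ftl1, Mt2, Mt1, Slc39a14, Tfrc, Slc30a1, Slc40a1 and Slc39a8. In hTNFtg SFs Mt2, at 5988 ± 2355 (SD, n = 3), stood next to Fth1 with overlapping ranges, and with infliximab Mt2, at 4561 ± 524, overlapped Fth1 again. In WT SFs the values of Ftl1 and Mt2, those of Slc39a14, Tfrc and Slc30a1, and those of Slc40a1 and Slc39a8 were not separated beyond their spread. In hTNFtg SFs the 9 genes together held 0.603, 0.391 and 0.267 percent of normalized counts, against 0.148 to 0.204 percent in WT and 0.278 to 0.312 percent with infliximab.

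Patterns over the 9 libraries were compared by Pearson correlation of log2 values among 6036 genes with a mean of at least 100, as a description, since all genes share the same libraries and their depth. Mt1 was most like Tnfaip1 (r = 0.986), Stab1 (0.967) and Il1rl1 (0.961). Mt2 was most like Gng12 (0.977), Timp1 (0.966) and Cgnl1 (0.962), and its r with Mt1 was 0.794. Within the 9 genes Mt2 was closer to Tfrc (0.904) and Slc39a14 (0.870), and Mt1 to Fth1 (0.866). Fth1 and Ftl1 had an r of 0.883. Slc39a14 was most like Tgfbr2 (0.971), Trim56 (0.963) and Grb14 (0.953), and Tfrc most like Tiam1 (0.955), Sirpa (0.949) and Csgalnact1 (0.944). Besides Best1, Fth1 was most like Psmd1 (0.972) and Rab8b (0.959), and besides Gm22133, Ftl1 was most like Rab11a (0.983) and Cenpb (0.971).

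Of 25 other zinc genes, 23 could be tested in hTNFtg versus WT SFs, of which 2 were called higher and 1 lower, where 3.35% and 3.04% of all genes were, with a median log2 fold change of 0.05. The sensor Mtf1, at 390, 250 and 162 normalized counts in WT, 224, 295 and 191 in hTNFtg, and 433, 355 and 299 with infliximab, had a log2 fold change of -0.11 ± 0.36, with overlapping groups. All its infliximab libraries lay above all hTNFtg libraries, at 0.62 ± 0.29 (adjusted p = 0.803 in limma). The gene called lower was Slc30a3, a transporter known for loading zinc into synaptic vesicles, at 28, 132 and 134 in WT, 0, 0 and 6 in hTNFtg and 2, 1 and 32 with infliximab. Its log2 fold change was -5.39 ± 0.95 (adjusted p = 0.034 in limma) in hTNFtg versus WT SFs, called with each library left out in turn. Tmem163, a zinc efflux protein, was called higher at 18, 4 and 15 in WT and 25, 30 and 39 in hTNFtg (1.47 ± 0.64, adjusted p = 0.614 in limma), and only 1 of 6 fits without a library kept the call. The other gene called higher was the importer Slc39a4, named after its values were seen, which did not exceed 11 in any library and was kept in 1 of 6 such fits. In infliximab-treated versus untreated hTNFtg SFs 0 of 22 were called in limma, where 2.43% of all genes were. In edgeR 2 were called, Slc30a3 (2.05) and Mt3 (-1.67), where 1229 of 28540 genes were. Mt3 had 0, 3 and 40 normalized counts in hTNFtg and 7, 4 and 6 with infliximab. Its difference in limma had the other sign, at 0.26 ± 1.20. In infliximab-treated versus WT SFs Slc30a3 was called lower and Mt3 and Slc39a4, both under a mean of 10, higher, 3 of 23 where 6.81% of all genes were called. The call of Slc30a3 (-3.79) was kept in 4 of 6 fits without a library and lost without WT replicate 2 (-3.42) or infliximab replicate 1 (-3.31), that of Mt3 was kept in 1 of 6 and that of Slc39a4 in 6 of 6.

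Of 40 other iron genes, 37 were in the tables and 32 could be tested in hTNFtg versus WT SFs, with 1 called higher, 2 lower and a median log2 fold change of -0.01, where 6.39% of all genes were called. The largest difference was in Steap3, an endosomal reductase that readies iron from transferrin for transport, which had 159, 221 and 220 normalized counts in WT, 19, 11 and 35 in hTNFtg, and 20, 34 and 34 with infliximab. All WT libraries lay above all others. Its log2 fold change was -3.28 ± 0.44 (adjusted p = 0.009 in limma) in hTNFtg versus WT and -2.75 ± 0.27 (adjusted p = 0.008 in limma) in infliximab-treated versus WT SFs, and it was called in both with each library left out in turn. Infliximab-treated and untreated hTNFtg SFs differed by 0.52 ± 0.56, with overlapping ranges, and by 1.13, called higher, with array quality weights. Slc11a2 (DMT1), which passes that iron to the cytosol, had 222, 223 and 200 in WT, 237, 265 and 257 in hTNFtg, and 182, 223 and 210 with infliximab, a log2 fold change of 0.23 ± 0.27 that was not called.

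Slc11a1 (NRAMP1), a metal transporter of macrophage phagosomes, was called higher at 2, 10 and 0 normalized counts in WT, 31, 21 and 29 in hTNFtg, and 50, 7 and 13 with infliximab, with a log2 fold change of 3.11 ± 0.92 (adjusted p = 0.254 in limma). Like the summed macrophage markers it was higher in every hTNFtg library than in any WT library. The part of macrophage RNA in it was not tested. Slc22a17, a receptor for the iron-carrying lipocalin Lcn2, was lower in hTNFtg, at 12, 11 and 10 against 42, 26 and 35 in WT (-1.54 ± 0.52, adjusted p = 0.373 in limma), and was called higher with infliximab, at 29, 35 and 22 (1.29 ± 0.56, adjusted p = 0.803 in limma). The hTNFtg value of replicate 1 rested on 2 reads, and without this library the differences were -1.59 and 1.34. The call in hTNFtg versus WT SFs held with each library left out, and that with infliximab was lost without hTNFtg replicate 2 (1.29), infliximab replicate 1 (1.27) or infliximab replicate 2 (1.13). Cp (ceruloplasmin), the ferroxidase that works with ferroportin, was called lower with infliximab, at 7, 16 and 22 against 25, 25 and 80 in hTNFtg (-1.38 ± 0.63, adjusted p = 0.803 in limma), a call kept in 1 of 6 fits without a library. Slc22a17 and Cp were the 2 of 34 called with infliximab versus untreated hTNFtg, where 2.43% of all genes were. In infliximab-treated versus WT SFs 3 of 34 were called, where 6.81% of all genes were, Slc11a1 higher and Steap3 and Lcn2 lower, Lcn2 being named after its values were seen. The calls of Slc11a1 and Lcn2 were each kept in 2 of 6 fits without a library, and that of Steap3 in 6 of 6.

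The regulators of the iron-responsive elements were not called in any comparison. Aco1 (IRP1) had 94, 140 and 148 normalized counts in WT and 56, 94 and 97 in hTNFtg, with a log2 fold change of -0.64 ± 0.35. Ireb2 (IRP2) ranged from 76 to 100 in WT and from 97 to 131 in hTNFtg, at 0.35 ± 0.31. Fbxl5, which degrades Ireb2 when iron is plentiful, differed by 0.16 ± 0.34 and Ncoa4, the receptor that delivers ferritin for breakdown, by 0.37 ± 0.39. Hmox1, which frees iron from heme, ranged from 329 to 437 in WT, from 168 to 756 in hTNFtg and from 363 to 534 with infliximab, with overlapping groups. Hamp, the hormone that removes ferroportin from the surface, was listed at 0 in 8 libraries and at 1 in infliximab replicate 3. Trf (transferrin) stood at 204 in that library and at 5 to 31 in the other 8, where the hepatocyte markers also were lower.

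**Figure D4:**
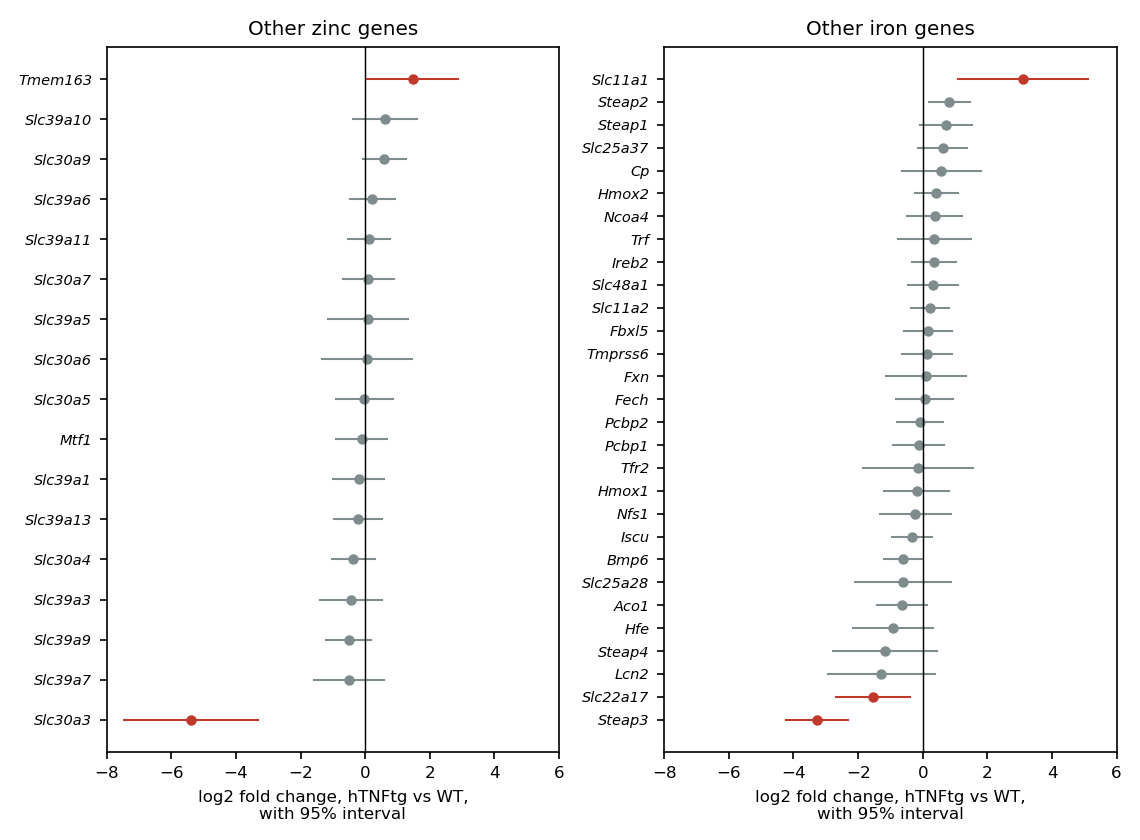
Log2 fold change in hTNFtg versus WT SFs (horizontal axis) with 95% intervals from limma for the other zinc genes (left, 17) and other iron genes (right, 29) with a mean of at least 10 normalized counts. Genes past the rule are red: Tmem163 and Slc30a3 on the left, and Slc11a1, Slc22a17 and Steap3 on the right, while most others lie within 1 of 0.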

How the data were processed

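RNA was from cultured mouse ankle SFs in 3 WT, 3 hTNFtg and 3 infliximab-treated hTNFtg libraries. The authors mapped reads to mm10 with TopHat2 and then Bowtie2, counted them per gene with GenomicRanges and ran DESeq through metaseqR (versions not given in the sources used here). Each value used is a score, a count that the authors normalized by 1 factor per library and rounded. In hTNFtg replicate 1 the deposited signal is whole reads times its factor. The deposited p-values, FDRs, fold changes and group means of the authors' comparisons were not used, nor were 12 further per-sample columns. The hTNFtg columns are equal in the 2 tables, which could therefore be joined.

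limma 3.58.1 (lmFit, eBayes with trend) in R 4.3.3 was run on log2(normalized count + 1) of the 6 libraries compared, over genes above 0 in at least 1 of them, with Benjamini-Hochberg adjustment over all genes. The pseudocount shrinks fold changes of low genes. Reads were estimated by dividing by the worth of 1 read, for edgeR 4.0.16. The test was tried on simulated data. Members, gene lists and tests were chosen with earlier results of these data known. Named are all members, genes of the other lists called in hTNFtg versus WT or infliximab-treated versus untreated SFs with a mean of at least 10, Mtf1, Aco1, Ireb2, Fbxl5, Ncoa4, Slc11a2, Hmox1 and Hamp, and for members with a mean of at least 100 the 3 most correlated genes. Mt3, Slc39a4, Lcn2 and Trf are named outside this rule. Coordinates are those of the files.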

Additional observations from a re-analysis of the deposited data

How the results depend on the processing

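Results were recomputed with other pseudocounts (0.5 and 5), a minimum mean of 10, other scalings (quantiles, median ratios), other variance models (array weights, robust eBayes, 1 fit over all 9 libraries, the replicate block), edgeR on approximate reads and each library left out. The 9 members called numbered 4 in hTNFtg versus WT, 0 in infliximab-treated versus untreated hTNFtg and 2 in infliximab-treated versus WT SFs. Leaving out 1 library gave 2 to 5 (the fifth being Ftl1, without hTNFtg replicate 3), 0 to 1 and 1 to 3, where 1382 to 2407, 418 to 1411 and 1681 to 2516 of 27017 to 28277 genes were called. The last count was 1 with a pseudocount of 5 and in the fit over 9 libraries. Causes were not tested. Over all genes the rule called 1823, 693 and 1923, against 1352, 351 and 1058 with a pseudocount of 5, 1183, 314 and 1056 with a mean of at least 10, 1580 for the last in the fit over 9 libraries, 3540, 2144 and 2338 with array weights and 2409, 1229 and 2051 in edgeR. Over all genes, 137, 0 and 209 passed adjustment in the main limma fits, against 923, 165 and 1319 in edgeR and 0 with the block. Other limma variance models moved these counts too, to 1004, 65 and 378 with array weights and 461, 3 and 1182 with robust eBayes. They were 381, 3 and 69 in the fit over 9 libraries.

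Other zinc genes called in hTNFtg versus WT SFs fell from 3 to 1 with a pseudocount of 5, other zinc genes in infliximab-treated versus untreated SFs went from 0 to 2 with array weights and in edgeR, and those in infliximab-treated versus WT SFs from 3 to 1 with a pseudocount of 5 or a mean of at least 10. Without 1 library they were 1 to 2, 0 to 1 and 1 to 4. Other iron genes went from 3 to 6 with array weights and 5 in edgeR, from 2 to 1 with a pseudocount of 5, a mean of at least 10 or quantile normalization and to 3 with array weights or in edgeR, and from 3 to 5 in edgeR. Without 1 library they were 3 to 6, 0 to 2 and 1 to 4.

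The same-numbered libraries shared only a number (r of their deviations -0.15 to 0.35). With the replicate block 5, 0 and 2 members were called (in hTNFtg versus WT 4 higher and Slc40a1 lower, at a log2 difference of -1.65), 1, 1 and 2 other zinc genes and 4, 2 and 1 other iron genes, where the rule called 1659 of 28522, 605 of 28540 and 1698 of 28243 genes, and the adjusted p of Mt1 in hTNFtg versus WT was 0.478. In infliximab-treated versus untreated SFs each library correlated best with its own number, which is a hint from the data and not from the design.

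Signs turned, for differences that were not called, in edgeR for Slc30a1 (0.14) and Hmox1 (0.066) in hTNFtg versus WT, with array weights for Mtf1 (0.16) there, and in infliximab-treated versus untreated SFs for Aco1 (-0.10, array weights) and Ireb2 (0.0748, array weights, and 0.046, edgeR). They also turned without 1 library. The ranges in hTNFtg versus WT were -0.41 to 0.32 (Slc30a1), -0.066 to 0.40 (Fbxl5), -0.75 to 0.33 (Hmox1) and -0.42 to 0.21 (Mtf1). In infliximab-treated versus untreated SFs they were -0.17 to 0.56 (Slc30a1), -0.83 to 0.10 (Slc39a14), -0.16 to 0.47 (Slc39a8), -0.41 to 0.035 (Tfrc), -0.18 to 0.25 (Aco1), -0.091 to 0.99 (Hmox1), -0.12 to 0.11 (Ireb2) and -0.18 to 0.30 (Ncoa4), and in infliximab-treated versus WT SFs -0.13 to 0.011 (Slc11a2) and -0.15 to 0.85 (Tmem163). For Mt3 in infliximab-treated versus untreated SFs the sign turned from limma (0.26) to edgeR (-1.67), where it was called. Its limma range without 1 library was -0.97 to 1.71. Depth limits Slc39a8 and Slc40a1, and in hTNFtg replicate 1 all genes near 18.7 normalized counts.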
